A study of Mus musculus with 9 samples.

Results

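The genes described here are the platelet-derived growth factor (PDGF) ligands Pdgfa, Pdgfb, Pdgfc and Pdgfd and the PDGF receptors Pdgfra and Pdgfrb, taken by symbol from the count table: 6 genes of 55487. RNA was sequenced from MCEC, an established line of mouse cardiac endothelial cells, after poly-A selection. There were 3 groups with 3 libraries each: unmodified cells (WT), cells with Zbtb46 knockdown (KD) and cells made to overexpress it (OE). Zbtb46 encodes a BTB-domain zinc finger transcription factor. The labels state no age, treatment, clone or vector, and no library of cells carrying a control vector was analysed here, so whatever made the modified lines cannot be told apart from the change in Zbtb46. Total counts ran from 39491828 to 55745849 per library, and ribosomal RNA features took 7.44% to 18.21% of them.

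PDGFs are dimeric growth factors that bind receptor tyrosine kinases and make the receptors pair and phosphorylate each other. PDGF-A and PDGF-B are cut by furin-like proteases before they leave the cell. PDGF-C and PDGF-D are secreted with a CUB domain that has to be removed outside the cell, by proteases such as tissue plasminogen activator for PDGF-C. In a vessel, endothelial cells are the classic source of PDGF-B, and pericytes and smooth muscle cells carry the beta receptor and are recruited by it. The alpha receptor is typical of fibroblasts and other mesenchymal cells.

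The libraries were first checked against their labels. Zbtb46 had 13.7 ± 0.623 CPM (the usual depth-scaled count, here with TMM factors; SD, n = 3) in WT cells, 11.2 ± 0.537 in KD and 191.4 ± 2.67 in OE, so it was only slightly lower in KD. Of 12 endothelial markers, 4 reached 1 CPM in a group (Kdr, Flt1, Tek and Egfl7). Erg had 0 counts in every library, and the highest group means were 0.15 CPM for Pecam1 and 0.0542 CPM for Cdh5. Of 8 fibroblast markers, 4 reached 1 CPM (Col1a1, Col3a1, Dcn and Thy1). Col1a2 stayed at group means of 0.611 CPM or less, and Lum, Tcf21 and Postn at 0.107 CPM or less. The summed level of the list was 8107.5 to 8976.7 CPM in WT, 8065.0 to 8189.3 in KD and 5080.8 to 5193.4 in OE, most of it Col1a1 and Col3a1. Of 11 pericyte and smooth muscle markers, 3 reached 1 CPM (Notch3, Acta2 and Mcam), while Rgs5, Cspg4, Kcnj8 and Abcc9 stayed at group means of 0.14 CPM or less. The summed level of 6 cardiomyocyte markers stayed at or below 1.62 CPM and that of 6 leukocyte markers at or below 5.10 CPM in each library. The transcripts of these cultures thus carried few of the listed markers of the labelled cell type.

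All 6 members passed the filter on low counts, and the count table held each of them on 1 row. To compare genes, levels were divided by the length of the annotated exons (RPKM). The ligands Pdgfa and Pdgfb led in every group: in WT, Pdgfa stood at 12.0 ± 0.727 RPKM (SD, n = 3) and Pdgfb at 7.99 ± 0.125, above 75.4% and 66.8% of the genes tested. Pdgfra followed at 1.70 ± 0.156 RPKM, then Pdgfd at 0.948 ± 0.224, Pdgfrb at 0.634 ± 0.129 and Pdgfc at 0.586 ± 0.0664. Neighbours in this order did not overlap between libraries, except Pdgfrb and Pdgfc. In KD and in OE, the order after Pdgfra was Pdgfc, Pdgfd and Pdgfrb, and of the neighbours in those groups only Pdgfc and Pdgfd in KD overlapped. With the longest transcript as length, Pdgfc and Pdgfrb exchanged places in WT.

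Promoter windows from RefSeq on GRCm38.p6 are shown for 3 members whose level differed between groups and whose window lies outside their own annotated exons. They were Pdgfc, higher in both modified lines, and Pdgfd and Pdgfra, lower in OE. Overlap of the windows with exons of other genes was not checked. Each line gives the 250 bases before the RefSeq start on the plus strand, at chr3:81036166-81036415, chr9:6168236-6168485 and chr5:75152001-75152250 in that order. Capitals mark any match, on either strand, to 5 motifs. These were the GC box GGGCGG and the TATA box TATAAA, the core of the cAMP response element, which reads TGACGT, the box named for its letters CCAAT, and the shear stress element first described in the PDGF-B promoter, which reads GAGACC.
Pdgfc: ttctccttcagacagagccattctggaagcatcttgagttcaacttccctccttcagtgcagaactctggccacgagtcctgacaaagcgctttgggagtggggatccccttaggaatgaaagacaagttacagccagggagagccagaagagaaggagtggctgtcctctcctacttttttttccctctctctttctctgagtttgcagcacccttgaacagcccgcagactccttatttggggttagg
Pdgfd: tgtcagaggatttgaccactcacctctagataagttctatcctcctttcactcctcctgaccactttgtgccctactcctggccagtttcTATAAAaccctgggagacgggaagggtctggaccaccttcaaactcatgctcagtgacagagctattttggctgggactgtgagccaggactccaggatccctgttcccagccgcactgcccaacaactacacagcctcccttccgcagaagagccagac
Pdgfra: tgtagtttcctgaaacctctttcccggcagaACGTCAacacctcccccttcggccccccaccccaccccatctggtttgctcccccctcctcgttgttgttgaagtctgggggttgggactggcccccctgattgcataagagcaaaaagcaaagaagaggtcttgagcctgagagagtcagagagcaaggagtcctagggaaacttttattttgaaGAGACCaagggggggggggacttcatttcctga
The Pdgfc window held no match and had 50.8% G and C. The Pdgfd window held TATAAA once, beginning 160 bases before the start, a motif in 12.4% of 32851 such windows. The Pdgfra window held TGACGT once on the other strand, as its reverse complement beginning 219 bases before the start (6.5% of windows), and GAGACC once, 33 bases before it (13.7% of windows). No 2 of these windows shared a matched motif, and a match describes letters only. The bases just after the RefSeq start were found in 1 of 3 annotated Pdgfc transcripts, 0 of 3 for Pdgfd and 0 of 9 for Pdgfra. For Pdgfd and Pdgfra, the distances are thus to a RefSeq start that matched no transcript of the annotation used here.

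KD was compared with WT first. Of the 6 members, 2 ligands rose (Pdgfa and Pdgfc), 1 ligand fell (Pdgfb), and Pdgfd and both receptors did not pass the test. So 3 of 6 passed at a Benjamini-Hochberg adjusted p under 0.05 (edgeR, quasi-likelihood test), where 21.3% of the 16955 genes tested did (11.0% higher, 10.4% lower). In OE, 5 of 6 passed against WT: Pdgfc rose, and Pdgfa, Pdgfd, Pdgfra and Pdgfrb fell. The background was 36.4% (17.0% higher, 19.5% lower). Among genes averaging 5 CPM or more in some group, as Pdgfa, Pdgfb, Pdgfc and Pdgfra did, 29.4% passed in KD and 49.2% in OE. Between OE and KD, 4 of 6 passed, Pdgfb being higher and Pdgfa, Pdgfd and Pdgfrb lower in OE, against 41.5% (19.4% higher, 22.1% lower). The balance of higher and lower calls over all genes depends on the scaling: it was 1859 to 1758 in KD and 2874 to 3300 in OE, but 885 to 1588 and 1623 to 3506 with library totals alone, and between OE and KD 3291 to 3740, but 4288 to 3151 with upper-quartile factors. The libraries of the compared groups did not overlap for 3 of 6 members in KD against WT (34.7% of all genes tested), for 6 in OE against WT (45.1%) and for 4 between OE and KD (55.4%). KD and OE were both set against the same WT libraries, so these are not independent comparisons. The labels do not say whether replicates were separate cultures, and p-values measure only the spread between these libraries. Fold changes below are fitted values from the same edgeR model, some with their standard errors, unless another fit or a subtraction is named.

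**Figure D1:**
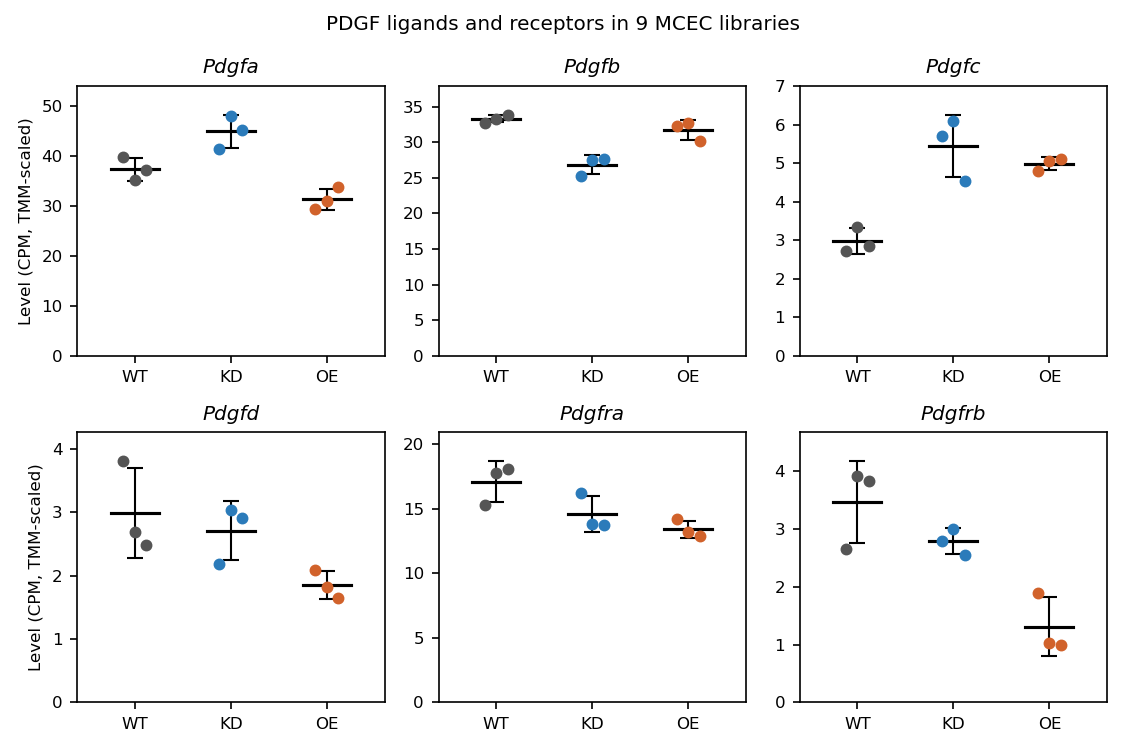
Levels of the 6 PDGF genes in CPM (linear axis from 0, TMM-scaled) in the 3 WT, 3 KD and 3 OE libraries; points are libraries, horizontal lines group means and whiskers the SD. Pdgfc lay at 2.72 to 3.36 CPM in WT and at 4.55 to 6.10 in the 6 modified libraries, and Pdgfrb at 2.66 to 3.93 CPM in WT and 1.0 to 1.90 in OE.

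Pdgfa, whose product binds the alpha receptor, moved in opposite directions in the modified lines. It had 39.8, 35.3 and 37.3 CPM in the WT libraries (replicates 1 to 3), 41.5, 48.1 and 45.3 in KD, and 29.5, 31.0 and 33.8 in OE. No KD library reached down to WT and no OE library reached up to it, although KD replicate 1 and WT replicate 1 were close. The log2 fold change was 0.26 (SE 0.067) in KD, adjusted p 0.00701, and -0.25 (SE 0.068) in OE, adjusted p 0.00638, in edgeR's quasi-likelihood test. Between OE and KD it was -0.52 (SE 0.068), adjusted p 2.46e-06, a level 30.0% lower. Both changes against WT were small and each rested in part on 1 library: without KD replicate 2 the KD change was 0.21 (adjusted p 0.069), and without OE replicate 1 the OE change was -0.21 (adjusted p 0.0508). Pdgfa lies on chromosome 5 (138976014 to 138997370, minus strand, GRCm38, GENCODE M21) and shares 26.07% of its exon bases with the gene 6330403L08Rik on the other strand, which had 9.83 CPM in WT, 11.3 in KD and 8.01 in OE. Whether strand was used in counting is not given in the sources used here.

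Pdgfb, the ligand of both receptors and the one that recruits pericytes, was lower in KD, by a small amount but in every library. Its levels were 32.7, 33.2 and 33.8 CPM in WT, 25.3, 27.5 and 27.6 in KD, and 32.3, 32.7 and 30.2 in OE. KD libraries formed a separate lower group, while the highest OE library stood just below the lowest WT library, at the same value when rounded. The log2 fold change was -0.31 (SE 0.061) in KD, a fall of 19.5%, adjusted p 0.000772 in edgeR's quasi-likelihood test. In OE it was -0.07, with a 95% interval of -0.19 to 0.06 and an adjusted p of 0.42. OE lay above KD by 0.24 (SE 0.061), adjusted p 0.00278. Some endothelial markers were also lower in KD: of the 5 tested, Kdr (-0.91), Egfl7 (-0.79) and Flt1 (-0.51) fell, 0 rose, and Tek and Esam did not pass. Of all genes tested, 10.4% fell. The summed level of the 12 listed, most of it Flt1, was 18.0 to 19.3 CPM in KD and 27.5 to 28.1 in WT. The part of these markers in the Pdgfb values was not tested. Pdgfb lies on chromosome 15 from 79995874 to 80014977, minus strand, and shares no exon base with another annotated gene.

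Pdgfc, one of the CUB-domain ligands, had the largest relative rise of the family and rose in both lines. It had 2.72, 3.36 and 2.86 CPM in WT, 5.70, 6.10 and 4.55 in KD, and 4.80, 5.07 and 5.11 in OE, from 103 to 287 counts per library. All 6 modified libraries lay above all 3 WT libraries. The log2 fold change was 0.86 (SE 0.15) in KD, 1.81-fold, adjusted p 0.000221, and 0.74 (SE 0.15) in OE, 1.66-fold, adjusted p 0.000484, both in edgeR's quasi-likelihood test. Among all genes tested, 6.06% changed by more in KD and 12.8% in OE, and 2.85% passed upward in both comparisons. OE and KD differed by -0.12, with a 95% interval of -0.42 to 0.17. The gene lies on chromosome 3 from 81036416 to 81214040, plus strand; Gm16000, which overlaps 2.89% of its exon bases, had a mean of 0.0137 CPM or less in each group.

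Pdgfd, the other CUB-domain ligand, which signals through the beta receptor, was lower in OE. Its levels were 3.80, 2.69 and 2.48 CPM in WT, 2.19, 3.04 and 2.91 in KD, and 2.09, 1.82 and 1.64 in OE. WT replicate 1 stood well above the other WT libraries, KD overlapped WT, and the OE libraries lay below both groups. The log2 fold change in OE was -0.68 (SE 0.20) against WT, adjusted p 0.0113, and -0.55 (SE 0.20) against KD, adjusted p 0.0367, in edgeR's quasi-likelihood test. Without WT replicate 1 the change against WT was -0.48 (adjusted p 0.0856), and without OE replicate 3 it was -0.60 (adjusted p 0.0517). The difference from KD no longer passed without KD replicate 2 (-0.46) or 3 (-0.49), or without OE replicate 2 (-0.53) or 3 (-0.47), with adjusted p from 0.0921 to 0.13. In KD the change was -0.14, with a 95% interval of -0.55 to 0.28. Pdgfd lies on chromosome 9 from 6168584 to 6378850, plus strand, in a 20 Mb window where the median over 66 tested genes was 0.16 for KD and -0.18 for OE, each against WT, and -0.37 between OE and KD, on the log2 scale. With these medians subtracted, Pdgfd stood at -0.50 for OE against WT and at -0.18 between OE and KD.

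Pdgfra, the receptor that binds PDGF-A, PDGF-B and PDGF-C, was modestly lower in OE. It had 15.3, 17.8 and 18.1 CPM in WT, 16.2, 13.8 and 13.7 in KD, and 14.2, 13.2 and 12.9 in OE. All OE libraries lay below all WT libraries, and KD replicate 1 fell among the WT values. The log2 fold change in OE was -0.35 (SE 0.090), a fall of 21.6%, adjusted p 0.00397 in edgeR's quasi-likelihood test. In KD it was -0.23 (SE 0.089), with a 95% interval of -0.42 to -0.04 and an adjusted p of 0.0762, and it passed without WT replicate 1 (-0.30, adjusted p 0.0301) or without KD replicate 1 (-0.31, adjusted p 0.0367). OE and KD differed by -0.12, with an interval of -0.31 to 0.07. Pdgfra spans 75152292 to 75198215 on chromosome 5, plus strand.

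Pdgfrb, the receptor of PDGF-B and PDGF-D, showed the largest change of the family. It had 2.66, 3.93 and 3.83 CPM in WT, 2.80, 3.01 and 2.56 in KD, and 1.90, 1.03 and 1.0 in OE, those in OE from 45 to 89 counts per library. The OE libraries lay below all others, with OE replicate 1 nearest to them, and KD overlapped WT through WT replicate 1. In OE the log2 fold change was -1.42 (SE 0.23) against WT, 2.67-fold lower, adjusted p 5.17e-05, and -1.09 (SE 0.23) against KD, 2.13-fold lower, adjusted p 0.000705, in edgeR's quasi-likelihood test. Leaving out any 1 library gave -1.78 to -1.26 against WT. A share of 3.52% of genes had a larger change than Pdgfrb between OE and WT. In KD the change was -0.33, with a 95% interval of -0.78 to 0.12. Pdgfrb lies on chromosome 18 from 61045150 to 61085061, plus strand, and overlaps no other annotated gene.

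Both receptors fell in OE, and so did all 5 tested fibroblast markers (Col1a1, Col1a2, Col3a1, Dcn and Thy1), where 19.5% of all genes tested fell. Col1a2 had only 8 to 38 counts per library, and Lum, Tcf21 and Postn were too low to be tested. The summed level of the list, most of it Col1a1 and Col3a1, did not overlap between OE and WT. The same held for 45.1% of single genes tested. In KD, 1 of the 5 tested fibroblast markers was higher and 1 lower, where 11.0% of all genes tested were higher and 10.4% lower. Endothelial markers moved in OE as well: of the 5 tested, Tek (-1.99), Egfl7 (-1.05) and Kdr (-0.58) were lower on the log2 scale and Flt1 (0.35) was higher, while their summed level overlapped, at 25 to 29.4 CPM in OE and 27.5 to 28.1 in WT. Among the 7 pericyte and smooth muscle markers tested, 1 was lower in OE (Acta2, -2.14 on the log2 scale) and 2 in KD (Acta2, -1.47, and Mcam, -0.23). Of all genes tested, 17.0% were higher and 19.5% lower in OE, and 10.4% were lower in KD. The summed level of the pericyte and smooth muscle list, most of it Mcam, was 44.2 to 49.5 CPM in WT. It was 33.6 to 37.9 CPM in KD and 40.8 to 42.0 in OE. The part of these cell markers in the receptor values was not tested. In bulk RNA, fewer cells of a type and less RNA per cell cannot be told apart.

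**Figure D2:**
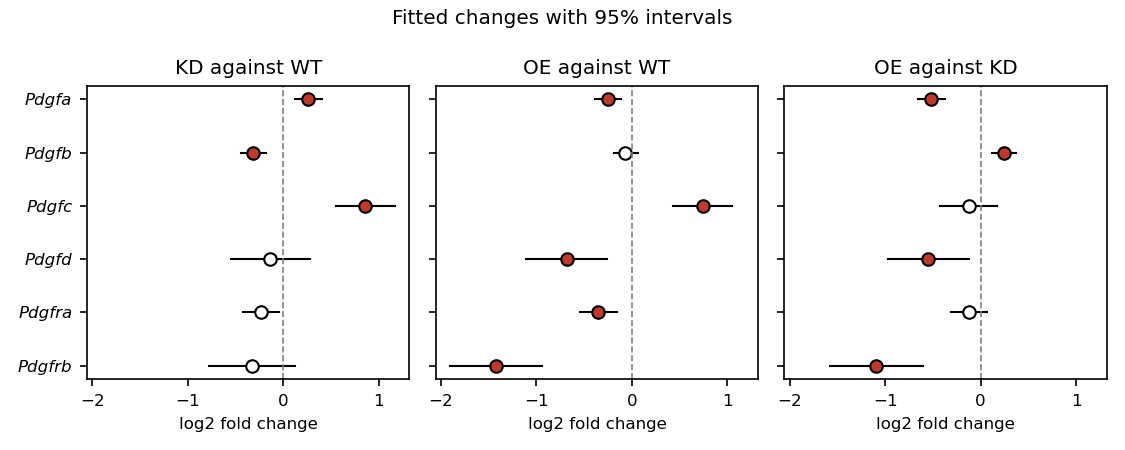
Fitted log2 fold changes of the 6 PDGF genes in KD against WT, OE against WT and OE against KD; lines are 95% intervals, and filled points have an adjusted p under 0.05. Pdgfa lies to the right of 0 in KD and to the left in OE, Pdgfc to the right in both, and Pdgfrb farthest to the left in both OE panels.

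The balance within the family was described by each gene's share of the summed level per kilobase. Pdgfa made up 55.7% ± 1.35 (SD, n = 3) of the ligand transcripts in WT, 63.2% ± 0.462 in KD and 52.3% ± 2.62 in OE. Pdgfb made up 37.2% ± 1.72 in WT, 28.3% ± 0.829 in KD and 39.6% ± 2.28 in OE. KD libraries stood apart from both other groups for these ligands, at 62.8% to 63.7% for Pdgfa against 54.3% to 57.0% in WT and 50.3% to 55.2% in OE. Pdgfc and Pdgfd together stayed below 10% of the ligand level in each library. Summed over the 4 ligands, the level was 21.5 ± 0.786 RPKM in WT, 22.8 ± 1.51 in KD and 19.3 ± 0.393 in OE.

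On the receptor side, Pdgfrb held 26.9% ± 2.44 (SD, n = 3) of the summed level in WT, 26.0% ± 2.34 in KD and 14.9% ± 4.18 in OE. Values in OE, at 12.4% to 19.7%, lay below all others, which ran from 24.0% to 28.8%. The summed receptor level was 2.34 ± 0.283 RPKM in WT, 1.97 ± 0.150 in KD and 1.58 ± 0.157 in OE. These shares depend on the length used: with the longest transcript of each gene, the WT share was 58.1% for Pdgfa and 20.3% for Pdgfrb. With 3 libraries a group the smallest two-sided p of an exact permutation test is 0.1, so no test of the shares was made.

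**Figure D3:**
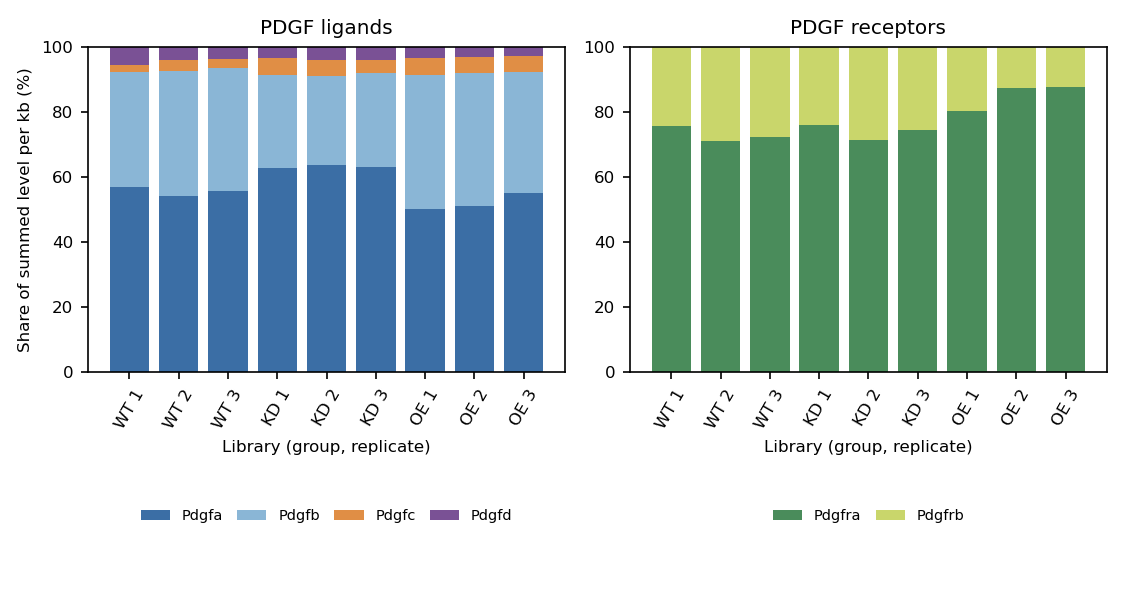
Shares in percent of the summed level per kilobase of exon, for the 4 PDGF ligands (left) and the 2 receptors (right), in each of the 9 libraries. Pdgfa takes 62.8% to 63.7% of the ligand level in KD, and Pdgfrb 12.4% to 19.7% of the receptor level in OE.

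The other genes of the pathway came from 5 lists with 64 genes, of which 61 were tested. In KD against WT, 24 of the 61 passed (13 higher, 11 lower), or 39.3%, and in OE against WT 34 passed (8 higher, 26 lower), or 55.7%. Most of these genes are well expressed, 53 of the 61 averaging 5 CPM or more in some group, and among all genes at that level 29.4% passed in KD and 49.2% in OE. Their median log2 fold change was 0.065 in KD and -0.147 in OE, where the medians of all genes tested were -0.0022 and 0.0020.

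Of the 8 tested genes for activation and retention of the ligands, 6 fell and 1 rose in OE, with a median log2 fold change of -0.512, and 3 fell and 2 rose in KD, with a median of 0.001. The shares that passed were 87.5% in OE and 62.5% in KD, against 49.2% and 29.4% of all genes averaging 5 CPM or more. Plat, the tissue plasminogen activator that frees PDGF-C, fell from 60.2 ± 4.66 CPM (SD, n = 3) in WT to 22.7 ± 0.463 in OE (log2 fold change -1.40, SE 0.060) and to 51.8 ± 0.483 in KD (-0.22, SE 0.057). The proprotein convertases moved unevenly. Furin, which cuts PDGF-A and PDGF-B, was lower in both lines, by -0.28 (SE 0.047) in KD and -0.38 (SE 0.047) in OE. Pcsk5 dropped from 45.0 ± 1.30 to 21.6 ± 1.25 CPM in OE and was at 46.8 ± 1.39 in KD. Pcsk6 rose in KD to 12.3 ± 0.777 CPM and fell in OE to 5.10 ± 0.0651, from 8.93 ± 0.711 in WT. Sparc, a matrix protein that binds PDGF-B, had log2 fold changes of 0.11 (SE 0.037) in KD and -0.45 (SE 0.037) in OE. In this list A2m and St14 were not tested, with at most 0 and 3 counts in a library.

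Among 8 tested co-receptors and relatives of the family, 1 passed in KD (12.5%) and 4 in OE (50%, 1 higher, 3 lower). Of all genes tested 21.3% and 36.4% passed, and of those averaging 5 CPM or more 29.4% and 49.2%. Csf1, the ligand of a receptor kinase of the same class, was higher in KD at 1000.2 ± 26.8 CPM (SD, n = 3) and lower in OE at 366.0 ± 7.07, against 824.1 ± 16.2 in WT. Pdgfrl, a PDGF receptor-like protein without a kinase, fell in OE from 3.65 ± 0.178 to 2.0 ± 0.157 CPM (log2 fold change -0.86, SE 0.16). Kit, a receptor kinase of the same class, rose in OE from 0.508 ± 0.0178 to 1.49 ± 0.449 CPM. The Kit gene begins 376.7 kb downstream of Pdgfra on chromosome 5. The co-receptors Nrp1 and Lrp1 had log2 fold changes of -0.24 (adjusted p 0.00872) and -0.17 (adjusted p 0.307) in OE, in edgeR's quasi-likelihood test.

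The receptor-proximal list, adaptors and kinases that dock on the activated receptor, had 23 tested genes. In KD 5 rose and 3 fell, and in OE 3 rose and 9 fell. These are 34.8% and 52.2% of the list, against 29.4% and 49.2% of all genes averaging 5 CPM or more. Src, the founding member of the Src kinases, fell in KD from 85.7 ± 1.84 to 64.8 ± 0.998 CPM (SD, n = 3), while the PI3-kinase subunits Pik3cb and Pik3r1 rose there by 0.46 (SE 0.046) and 0.32 (SE 0.057) on the log2 scale. In OE, the regulatory subunit Pik3r1 (-0.56, SE 0.059), the adaptor Gab1 (-0.61, SE 0.054) and the transcription factor Stat5b (-0.58, SE 0.050) fell. Grb2 and Ptpn11, which link the receptor to Ras, had log2 fold changes of 0.08 and 0.06 in OE and did not pass.

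Of the 10 genes that attenuate the receptors, 3 rose in KD and 5 fell in OE, shares of 30% and 50% that are near the 29.4% and 49.2% of all genes averaging 5 CPM or more. Ptprj, a phosphatase that acts on the beta receptor, had 67.9 ± 4.05 CPM in WT (SD, n = 3), 76.7 ± 0.831 in KD and 42.0 ± 1.15 in OE. Rasa1, the Ras GTPase-activating protein that docks on it, had 53.0 ± 5.05, 68.1 ± 3.68 and 35.8 ± 1.32 CPM. Both were higher in KD and lower in OE. Ptpn12, a phosphatase, rose in KD by 0.15 (SE 0.049), and Slc9a3r1, a scaffold that binds the receptor tail and is not itself a phosphatase or ligase, fell in OE by 0.42 on the log2 scale.

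Of 12 growth factor response genes, 7 passed in KD (58.3%) and 6 in OE (50%), and none passed in opposite directions in both. Among all genes averaging 5 CPM or more, 29.4% passed in KD and 49.2% in OE. In KD 5 fell and 2 rose, with a median log2 fold change of -0.401, and in OE 3 fell and 3 rose, with a median of -0.095. The immediate-early genes Ier2 and Fosb fell in KD: Ier2 from 40.6 ± 4.19 to 19.6 ± 1.98 CPM (SD, n = 3) and Fosb from 2.57 ± 1.04 to 0.788 ± 0.118. Fosb also fell in OE, to 1.49 ± 0.184 CPM (adjusted p 0.0232 in edgeR's quasi-likelihood test), where its libraries overlapped those of WT. Ier2 in OE stood at 40.8 ± 6.47 CPM. The chemokine Ccl2 was lower by the same amount in both lines, at -0.42 (SE 0.078) each. Ccnd1, which encodes cyclin D1, rose in OE from 13.3 ± 0.532 to 20.6 ± 0.196 CPM, and Ier3 by 0.26 (SE 0.049).

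**Figure D4:**
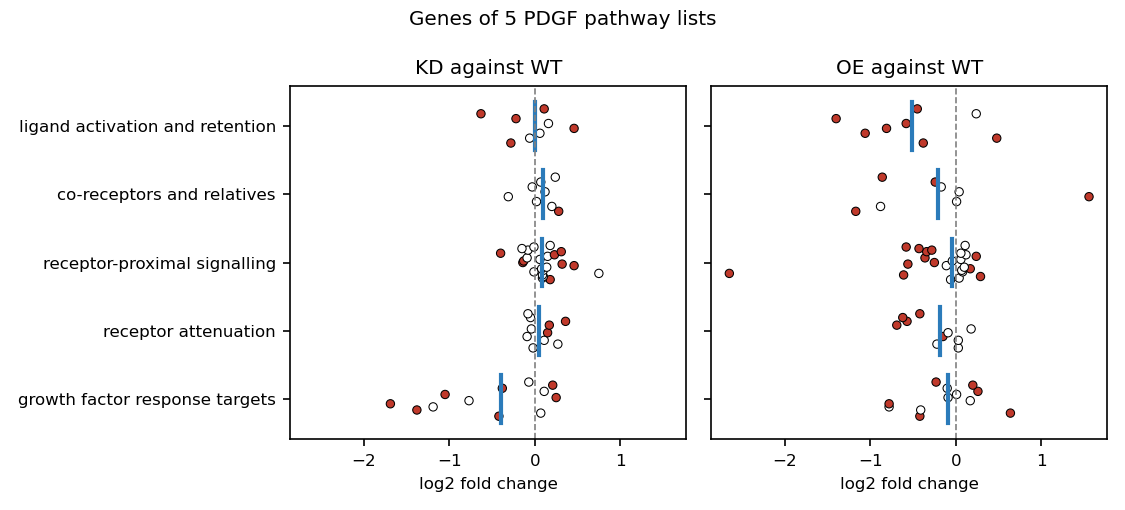
Fitted log2 fold changes of the 61 tested genes of 5 PDGF pathway lists in KD against WT (left) and OE against WT (right); each point is a gene, filled where the adjusted p is under 0.05, and blue bars are list medians. The median of the ligand activation list is at 0.001 in KD and -0.512 in OE, and that of the growth factor response list at -0.401 in KD and -0.095 in OE.

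Finally, the genes whose log2 CPM over the 9 libraries followed each member most closely were listed. They were taken from 9943 or 9944 other genes that averaged 5 CPM or more in some group. Symbols of predicted genes, Rik genes and clones were left out before the ranking. These correlations are descriptions: the libraries fall into 3 groups, so a shared group pattern alone makes them high. For Pdgfa the closest were Haus4 (Pearson r 0.993), Tmem129 (0.986) and Dis3l (0.978), and for Pdgfb they were Hbegf (0.973), Prss12 (0.967) and Gmeb2 (0.960). Pdgfc was followed by Kdm3b (0.977), Naf1 (0.966) and Vmn1r43 (0.963), and Pdgfd by Aim2 (0.946), Cxxc5 (0.937) and Saysd1 (0.937). For Pdgfra they were Mical3 (0.967), Gse1 (0.947) and Dock6 (0.944), and for Pdgfrb Fmnl2 (0.986), Dcaf8 (0.967) and Kiz (0.962). The likeness is in shape and not in size: Hbegf, an EGF-family ligand, changed by -0.61 in KD where Pdgfb changed by -0.31, and Fmnl2 by -0.51 in OE where Pdgfrb changed by -1.42. Among the members themselves, Pdgfra and Pdgfrb had a Pearson r of 0.80 over the 9 libraries, Pdgfd and Pdgfrb 0.72, and Pdgfb and Pdgfc -0.70.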

How the data were processed

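Poly-A RNA of 9 MCEC libraries (3 WT, 3 KD, 3 OE) was measured. The authors deposited 1 table of raw counts, whole numbers for each Ensembl gene in each library, as its values and column names show. The submitters' processing notes name GRCm38 and mm10; the aligner, counter, strand setting and annotation release are not given in the sources used here. The table has 55774 rows; 168 genes on 455 rows with identical counts were counted once. All 9 count columns matched a sample by name.

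Genes were kept with filterByExpr (16955), scaled with TMM and fitted with edgeR 4.0.16 (R 4.3.3) in 1 robust quasi-likelihood model over the 9 libraries, with group as the only term. Benjamini-Hochberg adjustment ran over all genes tested, with 0.05 as the threshold. Standard errors and 95% intervals come from the quasi-likelihood F statistic. Levels are CPM with TMM factors, or that per kilobase of the union of exons in GENCODE M21 (RPKM). The similarity measure used log2 CPM with a prior count of 2. The fit was also run on simulated counts with known changes set in KD only, and no result here rests on that run. Alternatives were other scalings, filters and tools (DESeq2 1.42.0, limma 3.58.1), a replicate block, a fold minimum of 1.5, ribosomal RNA left out, 20 Mb window medians subtracted, and each library left out.

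The members, the gene lists and the tests were chosen with earlier results of these data known. The text names the 6 members, Zbtb46, from each pathway list the up to 3 genes with the smallest p among those that passed in KD or in OE against WT, and for each member the 3 genes of most similar pattern. Genes outside this rule (Nrp1, Lrp1, Grb2, Ptpn11, A2m, St14, Csf1r, the overlapping genes, and all genes named from the cell type marker lists) were named after their values were seen. RefSeq promoter windows were listed for 4 of the 6 members.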

Additional observations from a re-analysis of the deposited data

How the results depend on the processing

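Each log2 fold change was recomputed under 22 alternatives, and no change that passed reversed its sign in any of them. The fewest calls came when the null was a fold change of up to 1.5. Then 274 genes passed for KD and 794 for OE against WT, and 1331 between OE and KD, of them 2, 4 and 12 in the pathway lists and 0, 1 and 0 members, the 1 being Pdgfrb in OE. Under it the changes of Pdgfa (0.26), Pdgfb (-0.31) and Pdgfc (0.86) in KD, of Pdgfa (-0.25), Pdgfc (0.74), Pdgfd (-0.68) and Pdgfra (-0.35) in OE, and of Pdgfa (-0.52), Pdgfb (0.24), Pdgfd (-0.55) and Pdgfrb (-1.09) between OE and KD no longer passed. With upper-quartile factors Pdgfra in KD passed (-0.26, adjusted p 0.0438) and Pdgfd between OE and KD did not (-0.48), nor did the latter with limma-voom (-0.53). Window medians brought Pdgfb in OE to -0.00038 and Pdgfd between OE and KD to -0.18. Scaled by library totals only, 35.8% of the genes that passed in KD and 31.6% in OE were higher, in place of 51.4% and 46.6%, and the members passed as before. Upper-quartile factors moved these shares to 42.7% in KD and 54.3% in OE, and between OE and KD from 46.8% to 57.6%.

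When 1 library was left out, the number of members that passed was 2 to 4 in KD, 4 to 5 in OE and 3 to 4 between OE and KD, while over all genes 2537 to 4699, 5228 to 6440 and 6072 to 7604 passed. The log2 fold changes in KD ran from 0.21 to 0.32 for Pdgfa, from -0.25 to 0.06 for Pdgfd, which did not pass in any of these fits, and from -0.31 to -0.18 for Pdgfra. In the reversed cases Pdgfd stood at 0.06 without WT replicate 1 and 0.0018 without KD replicate 1. In OE they ran from -0.30 to -0.21 for Pdgfa and from -0.80 to -0.48 for Pdgfd, and between OE and KD from -0.69 to -0.46 for Pdgfd. The cause of these shifts was not tested. With the longest transcript as length, 4 of the 6 members kept their place in the WT order.

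Replicate numbers were shared between groups, but same-numbered libraries did not deviate together over all genes tested (correlations of -0.042 to 0.049, 0 of 9 pairs over 0.1, and 4 of 9 libraries closest to their own number). A batch that acted on few genes would not show in these correlations. The labels do not say whether a number marks a batch. With the replicate number as a block, 3574 genes passed in KD, 6111 in OE and 6969 between OE and KD, and 3, 5 and 4 members as before.

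Pdgfc, Pdgfd and Pdgfrb had the lowest depth, with 45 to 287 counts per library, and the largest standard errors of the 6 members.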

Other observations

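The PDGF receptor genes lie next to other receptor kinase genes, and these neighbours had values of their own. Csf1r begins 15.5 kb downstream of Pdgfrb on chromosome 18 and had 0.489 CPM in WT, 0.573 in KD and 0.269 in OE, a log2 fold change of -0.88 in OE (adjusted p 0.138 in edgeR's quasi-likelihood test), which did not pass. Kdr, a VEGF receptor gene, ends the Pdgfra, Kit and Kdr cluster of chromosome 5, 734.6 kb from Pdgfra. It fell in KD from 2.64 to 1.4 CPM (log2 fold change -0.91, adjusted p 0.00261) and in OE to 1.77 CPM (-0.58, adjusted p 0.0276), in edgeR's quasi-likelihood test. In OE, the cluster thus held Kit higher and Pdgfra and Kdr lower than in WT.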
